A study of Mus musculus with 4 samples.

Results

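The genes described here are 42 genes of mitosis and the kinetochore, chosen by name from a list that runs from the cyclins and kinases of mitotic entry to the motors of cytokinesis. All 42 were found by symbol among the 27179 genes of the deposited table, and all 42 passed the filter on low values. They were measured by RNA sequencing in mouse acute myeloid leukemia (AML) cells taken from bone marrow of C57BL/6 mice, sorted as positive for YFP, for the myeloid integrin Mac-1 and for c-Kit, and labelled LSC, for leukemia stem cell. The 4 samples comprise 2 of wild-type genotype and 2 labelled B7-H4-null, that is, lacking the T cell inhibitory ligand B7-H4 encoded by Vtcn1. The labels give no treatment, age, leukemia-driving oncogene or cell type of the deletion, and they do not say whether the replicates are different mice. The p-values therefore cover the spread among these 4 libraries, which may be technical. The reads on Vtcn1 numbered 0 in each wild-type and 1 in each B7-H4-null library, too few to check the genotype labels.

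A cell enters mitosis when cyclin B with its kinase Cdk1 is switched on by Cdc25 phosphatases and by the kinases Plk1 and Aurora A. Kinetochores, protein plates built on centromeric chromatin marked by the histone variant CENP-A, then attach chromosomes to spindle microtubules, and the spindle checkpoint holds the anaphase-promoting complex off until every chromosome is attached. The transcripts of these genes are made mainly in the G2 phase and in mitosis, through promoters that carry CCAAT boxes and the cell cycle genes homology region (CHR), so their level in a sample follows the number of dividing cells. In bulk RNA, fewer dividing cells and less RNA per dividing cell cannot be told apart.

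Values are given as RPKM, reads scaled to gene length and to the library total. The library totals behind the scaling lay between 9419425 and 10814448 reads, and 131 to 5430 reads stood behind each value of the 42 genes. Counting error alone was therefore at most 8.74% (1 SD, Poisson). The sort markers were present in every library, with summed RPKM of 350.7 and 307.0 in wild type and 217.0 and 215.4 in B7-H4-null. Kit varied most of them and overlapped, with 24.0 and 7.19 RPKM in wild type replicates 1 and 2 and 11.02 and 9.37 RPKM in B7-H4-null. The Mac-1 chain genes Itgb2 and Itgam were lower in B7-H4-null without overlap, against 28.0% of all tested genes. Itgb2 had 212.6 and 212.9 RPKM against 123.1 and 146.1 RPKM, and Itgam 114.1 and 86.9 RPKM against 82.9 and 59.9 RPKM. Neither passed (adjusted p = 0.371 and 0.556, limma). All 10 mature neutrophil markers were detected, and wild type summed to 9017 and 4217 RPKM, B7-H4-null to 3071 and 2826 RPKM. Of 17 early response genes 16 reached 1 RPKM in at least 2 libraries, with sums of 2413 and 3627 RPKM against 12950 and 5940 RPKM, and the 7 monocyte and macrophage markers had sums of 964.4 and 1200 RPKM against 1499 and 1665 RPKM. Of 11 erythroid markers only the transferrin receptor gene Tfrc reached 1 RPKM in at least 2 libraries. Without it the erythroid sum was 1.70 to 4.47 RPKM in all 4 libraries, and Car1 was at 0. The T and NK cell sum was 0.592 to 1.45 RPKM without Nkg7 and the B cell sum 0.821 to 3.01 RPKM without Cd79b, with Pax5 at 0. The mast cell and basophil markers, with Fcer1a at 0, reached sums of 39.6 and 37.5 RPKM (wild type) and of 175.8 and 68.1 RPKM (B7-H4-null). Those of megakaryocytes summed to 16.1 to 29.9 RPKM and those of stroma and endothelium to 19.5 to 38.4 RPKM over the 4 libraries. What part the sort marker, neutrophil, monocyte, mast cell or early response genes had in the values below was not tested.

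The promoters are shown first because they hold what most of these genes share outside the expression values. RefSeq promoter sequences of 300 bases (250 before and 50 from the transcript start, GRCm38.p6) were matched for 34 of the 42 genes, 37 promoters in all, since Bub3, Prc1 and Ect2 have 2 overlapping ones each. Both strands were searched for the CHR letters TTTGAA, for their variant TTTAAA, for the CCAAT box and for E2F sites (TTTCCCGC, TTTCGCGC, TTTGCCGC and TTTGGCGC). Matches of different motifs overlapped once, and both were counted. TTTGAA occurred in 28 of the 37 promoters (75.7%, 25 genes), against 17.9% of all 32851 promoters of the table. Within 50 bases of the start it occurred in 67.6% of the 37 and in 4.94% of all. CCAAT occurred in 29 of the 37 (78.4%, 26 genes) against 37.4% of all, and both TTTGAA and CCAAT in 67.6% against 6.95%. TTTAAA was found in 27.0% against 13.2%, and the E2F letters in 2.70%, the Cdk1 promoter alone, against 2.26%. Over all matches the median position relative to the start was −5 for TTTGAA and −68 for CCAAT.

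The 6 stretches below run from 100 bases before to 30 bases after the start, 5′ to 3′ on the gene's strand. They are those of cyclins B1 and B2, of the anaphase activator Cdc20, of the centromeric histone Cenpa, and of Cenpf and Anln, the 2 genes with the smallest p-values of the 42. Capitals mark the CHR letters, their variant and the CCAAT box on either strand, so that the CHR of Anln appears as TTCAAA and the box of Cenpa is also written from the opposite strand.
Ccnb1, chr13:100786457-100786586, minus strand: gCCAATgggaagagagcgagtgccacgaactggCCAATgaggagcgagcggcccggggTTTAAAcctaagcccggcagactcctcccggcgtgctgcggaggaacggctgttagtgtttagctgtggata
Ccnb2, chr9:70421525-70421654, minus strand: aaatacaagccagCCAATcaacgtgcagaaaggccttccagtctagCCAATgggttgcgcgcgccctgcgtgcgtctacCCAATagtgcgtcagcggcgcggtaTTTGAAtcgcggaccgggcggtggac
Cdc20, chr4:118437314-118437443, minus strand: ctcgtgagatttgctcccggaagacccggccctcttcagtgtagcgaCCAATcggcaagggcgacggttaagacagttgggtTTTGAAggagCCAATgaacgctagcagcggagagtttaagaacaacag
Cenpa, chr5:30666786-30666915, plus strand: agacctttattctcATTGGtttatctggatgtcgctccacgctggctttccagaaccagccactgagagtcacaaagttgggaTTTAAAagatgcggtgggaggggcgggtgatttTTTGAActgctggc
Cenpf, chr1:189688057-189688186, minus strand: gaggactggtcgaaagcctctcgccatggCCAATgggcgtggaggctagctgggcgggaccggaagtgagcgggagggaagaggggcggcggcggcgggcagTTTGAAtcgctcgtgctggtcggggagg
Anln, chr9:22389177-22389306, minus strand: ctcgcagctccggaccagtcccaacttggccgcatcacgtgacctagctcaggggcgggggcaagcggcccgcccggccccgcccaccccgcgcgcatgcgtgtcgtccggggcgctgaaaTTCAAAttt
Ccnb2 holds 3 CCAAT boxes and then TTTGAA 5 bases into the transcript, while Ccnb1 holds 2 CCAAT boxes and TTTAAA in place of TTTGAA. A match describes the letters and is not a measured binding site. The 25 genes with TTTGAA had a median log2 difference of −0.21 between genotypes (B7-H4-null minus wild type) and the 9 matched genes without it had −0.12. The order was the same for CCAAT (−0.229 with and −0.095 without) and for TTTAAA (−0.283 and −0.177), so it was not particular to TTTGAA. These medians were made without further scaling or length correction, and their differences were not tested.

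**Figure D1:**
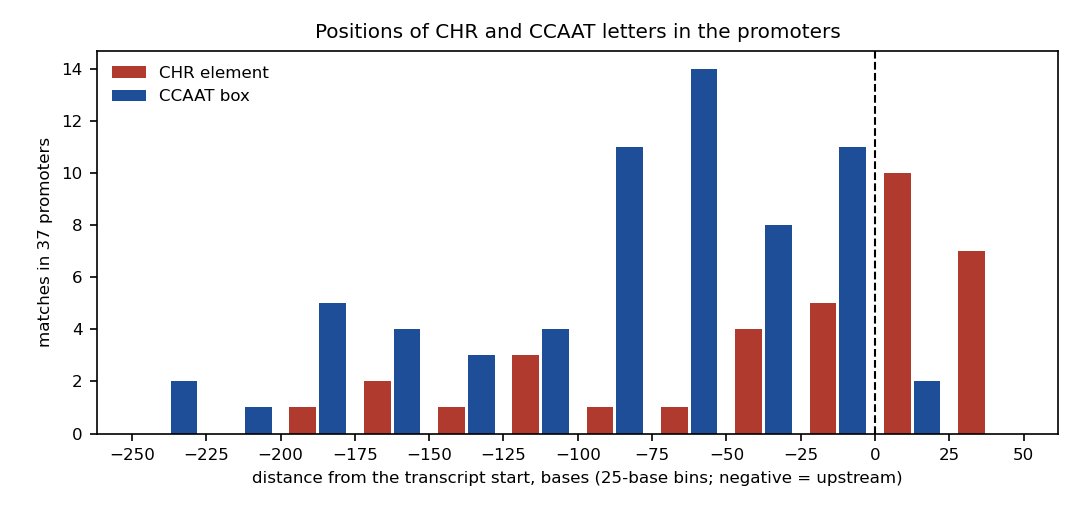
Number of matches to the CHR letters (red) and the CCAAT box (blue) in 25-base bins along the 37 promoters, with distance from the transcript start in bases on the x axis. CHR matches gather around and just after the start (dashed line; median −5) and CCAAT boxes upstream of it (median −68).

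All 42 genes were detected in every library, from 2.46 RPKM (Aspm) to 114.4 RPKM (Ccnb2), and none passed the test between genotypes. Their median level was 21.8 and 29.3 RPKM in wild type replicates 1 and 2 and 22.4 and 21.5 RPKM in B7-H4-null replicates 1 and 2, against 12.1 to 13.5 RPKM for the median of the 12107 tested genes. Limma called 0 of the 42 genes at an adjusted p under 0.05 (0.0991% of all tested genes were called, 12 genes), and the adjusted p-values ran from 0.32 to 0.995. At an unadjusted p under 0.05 there were 2 of 42, Cenpf and Anln, both lower, against 12.3% of all genes in either direction, 7.2% lower and 5.05% higher. Voom on recovered reads also called 0, with 2 at an unadjusted p under 0.05. The median log2 difference over the 42 was −0.14, beside −0.09 over all tested genes. Of the 42 genes 8 were above 0 and 34 below, against 5022 and 7085 of the 12107 tested genes. After median-ratio scaling, which centres the median of all genes at 0.01, the split of the 42 was 19 above and 23 below and the median −0.04. Without wild type replicate 2 it was 22 above and 20 below, with a median of 0.02.

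The interval of each difference limits what the data allow. For 35 of the 42 genes the 95% interval lay inside a 2-fold change either way (log2 from −1 to 1). It reached beyond a 2-fold decrease for 6 genes, Ccnb1, Cdc25b, Cenpf, Prc1, Anln and Aspm, and beyond a 2-fold increase for 1, Bub1. The standard errors lay between 0.237 and 0.34. Across the 4 libraries the highest value was less than 2-fold above the lowest for 40 of the 42 genes (95.2%), against 66.9% of all tested genes, and the exceptions were Ccnb1 and Cenpf. The genotype difference had a median size of 0.20 on the log2 scale, smaller than the median difference between the wild-type replicates (0.31) or between the B7-H4-null replicates (0.27). A difference between means of 2 libraries varies less than one between single libraries, so a smaller size says nothing of the genotype. The genotype difference exceeded both replicate differences for 4 of the 42 genes, and the share over all tested genes was not counted.

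**Figure D2:**
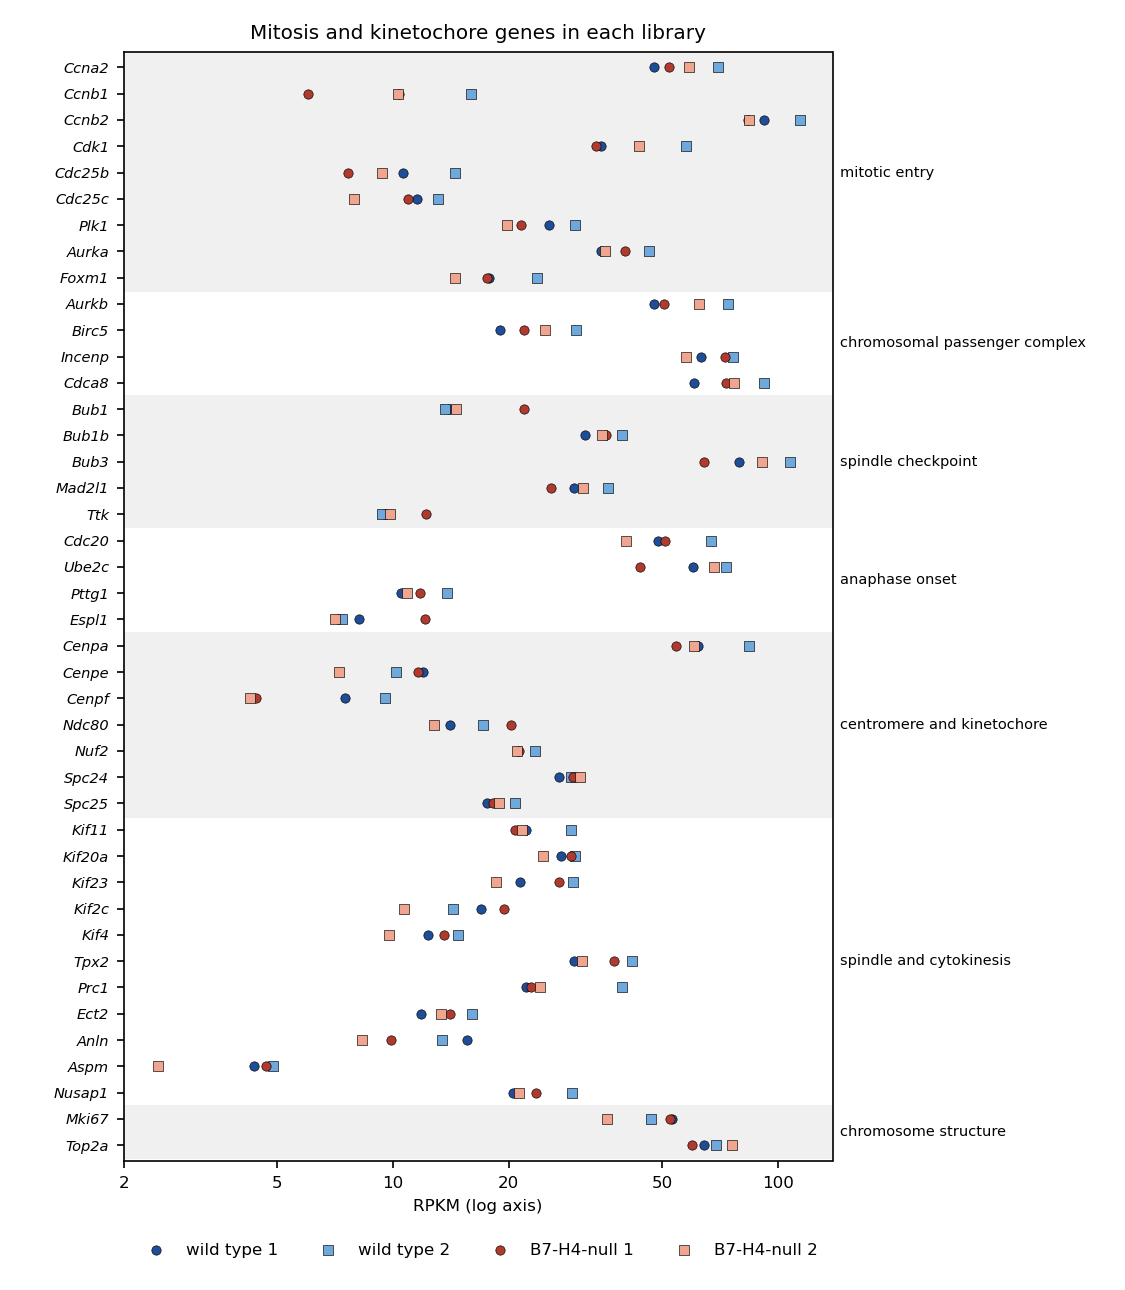
RPKM (log axis) of the 42 genes in each of the 4 libraries, ordered by role; blue symbols are wild type, red symbols B7-H4-null, circles replicate 1 and squares replicate 2. The light blue squares of wild type replicate 2 lie farthest right for 32 genes, and the genotypes overlap for 29.

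For 13 of the 42 genes the wild-type and B7-H4-null values were separate, against 44.0% of all tested genes. Both B7-H4-null libraries lay below both wild-type libraries for 10 of them, 23.8% of the 42 against 28.0% of all tested genes. These were Ccnb1, Ccnb2, Cdc25b, Cdc25c, Plk1, Foxm1, Cenpa, Cenpf, Kif11 and Anln. They lay above for 3, Bub1, Ttk and Spc24, or 7.14% against 16.0%. After median-ratio scaling the lower count was 5 (Cdc25b, Plk1, Cenpa, Cenpf and Anln) against 22.2% of all genes, and the same 3 were higher against 22.1%.

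The genes of mitotic entry were below 0 in 9 of 9 cases, or 7 of 9 after median-ratio scaling, 8 of 9 with the trend on gene length removed and 6 of 9 without wild type replicate 2. Over all tested genes 7085 of 12107 were below 0. The mitotic entry genes had a median log2 difference of −0.35. In the lower direction 6 of 9 were without overlap, against 28.0% of all tested genes, and after median-ratio scaling 2, Cdc25b and Plk1, against 22.2%. Ccnb1 (gene ID 268697, chromosome 13, 100778739 to 100786486) encodes cyclin B1, the activating partner of Cdk1. It measured 10.4 and 15.9 RPKM in the wild-type libraries, as compared to 6.01 and 10.3 RPKM in those of B7-H4-null, so that B7-H4-null replicate 2 reached almost the level of wild type replicate 1. The log2 difference was −0.64 ± 0.34 (SE, adjusted p = 0.503). Leaving out B7-H4-null replicate 1 gave −0.30, and leaving out wild type replicate 2 gave −0.36. Its relative Ccnb2, cyclin B2, was the most abundant of the group with 91.9 and 114.4 RPKM against 83.6 and 84.4 RPKM, close together in B7-H4-null and just below wild type replicate 1 (log2 difference −0.29 ± 0.254, adjusted p = 0.691).

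Cdc25b, a phosphatase that frees Cdk1 from inhibitory phosphates, measured 10.6 and 14.5 RPKM in the wild-type libraries, as compared to 7.65 and 9.39 RPKM in those of B7-H4-null. All B7-H4-null values lay below the wild-type ones, with a log2 difference of −0.50 ± 0.272 (SE, adjusted p = 0.516) that was −0.29 without wild type replicate 2. Plk1, the polo-like kinase of centrosome maturation and chromosome alignment, had 25.4 and 29.7 RPKM against 21.5 and 19.8 RPKM (−0.40 ± 0.243, adjusted p = 0.568). Cdc25c and Foxm1, the latter a transcription factor of G2 and M phase genes, had log2 differences of −0.36 and −0.35. The kinase gene Cdk1 itself, cyclin A2 (Ccna2) and Aurora A (Aurka) overlapped between genotypes, at −0.22, −0.06 and −0.08.

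The chromosomal passenger complex, which corrects faulty attachments and guides cytokinesis, had log2 differences from −0.10 to 0.01, with all 4 genes above 0 after median-ratio scaling or without wild type replicate 2. Its kinase Aurkb measured 47.8 and 74.3 RPKM in the wild-type libraries, as compared to 50.5 and 62.5 RPKM in those of B7-H4-null. The scaffold Incenp had 63.3 and 76.3 RPKM against 73.0 and 57.9 RPKM. For both, the genotypes overlapped. Birc5, survivin, had 18.9 and 29.9 RPKM against 21.9 and 24.8 RPKM, and Cdca8, borealin, had 60.44 and 92.0 RPKM against 73.3 and 76.8 RPKM. All 4 genes were highest in wild type replicate 2, and 3 of them were lowest in wild type replicate 1.

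The spindle checkpoint genes were divided, 3 with a positive and 2 with a negative difference (median 0.01). Bub1, a kinase that recruits checkpoint proteins to kinetochores, measured 13.96 and 13.69 RPKM in the wild-type libraries, as compared to 21.9 and 14.6 RPKM in those of B7-H4-null. The groups did not overlap, but B7-H4-null replicate 2 stood just above wild type, and the log2 difference of 0.35 ± 0.279 (adjusted p = 0.652) was 0.07 with B7-H4-null replicate 1 left out. Ttk, the checkpoint kinase Mps1, followed the same order with 9.46 and 9.40 RPKM against 12.2 and 9.82 RPKM. Bub3, the WD40 protein that binds Bub1 and BubR1, was the most abundant at 79.3 and 107.7 RPKM against 64.3 and 91.1 RPKM. Each genotype had a high and a low library, and the genotypes overlapped (−0.27, adjusted p = 0.748). Mad2l1 had −0.20 and Bub1b, encoding BubR1, 0.01.

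Of the genes of anaphase onset, none differed without overlap. Cdc20, which activates the anaphase-promoting complex, measured 48.9 and 67.0 RPKM in the wild-type libraries, as compared to 50.8 and 40.4 RPKM in those of B7-H4-null (log2 difference −0.33 ± 0.28, adjusted p = 0.674). Ube2c, the ubiquitin-conjugating enzyme of that complex and the shortest of the 42 genes at 931 nt, had 60.0 and 73.2 RPKM against 43.8 and 68.3 RPKM (−0.27, adjusted p = 0.748). The low library was B7-H4-null replicate 2 for Cdc20 and B7-H4-null replicate 1 for Ube2c. Espl1, separase, which cuts cohesin, had 8.18 and 7.36 RPKM against 12.2 and 7.09 RPKM, high in B7-H4-null replicate 1 only. Its inhibitor securin, Pttg1, had a log2 difference of −0.09.

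Cenpf (gene ID 108000, chromosome 1, 189640606 to 189688107), a large coiled-coil protein of the outer kinetochore, had the lowest log2 difference of the 42. It had 7.52 and 9.55 RPKM in wild type, or 8.54 ± 1.44 RPKM (SD, n = 2), and 4.41 and 4.26 RPKM in B7-H4-null, or 4.33 ± 0.102 RPKM. Both B7-H4-null libraries agreed closely and lay well below wild type, 1.97-fold lower in means. The log2 difference was −0.83 ± 0.255 (SE, 95% interval −1.44 to −0.22), and it did not pass the test (adjusted p = 0.32, limma). Over the alternatives it ranged from −0.98 without wild type replicate 1 to −0.52 with the trend on gene length removed, with adjusted p from 0.178 to 0.867.

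Cenpa, the histone variant that marks the centromere (the only member of the group above 50 RPKM), measured 61.9 and 84.1 RPKM in the wild-type libraries, as compared to 54.4 and 60.5 RPKM in those of B7-H4-null, without overlap but close to wild type replicate 1 (−0.33 ± 0.269, adjusted p = 0.664). Cenpe, a kinesin that moves chromosomes to the metaphase plate, had 11.95 and 10.18 RPKM against 11.6 and 7.24 RPKM, low in B7-H4-null replicate 2 only. The 4 subunits of the NDC80 complex, the microtubule hook of the kinetochore, differed by little. Ndc80, Nuf2, Spc24 and Spc25 had log2 differences of 0.05, −0.07, 0.09 and −0.04, and Nuf2 varied least of all 42 genes, 1.11-fold between its highest and lowest library. Ndc80 varied 1.58-fold, so the subunits of 1 complex did not share 1 pattern over the libraries.

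The spindle and cytokinesis genes were below 0 in 11 of 11 cases, beside 7085 of all 12107 tested genes. The count of 11 became 8 after median-ratio scaling and 5 with the length trend removed. Leaving out B7-H4-null replicate 2 left 4 below 0, and leaving out wild type replicate 2 left 6. The group had a median of −0.16, and 2 of 11, Kif11 and Anln, were lower without overlap, against 28.0% of all tested genes. Anln (gene ID 68743, chromosome 9, 22331214 to 22389211) encodes anillin, the scaffold of the contractile ring. It had 15.6 and 13.4 RPKM in wild type, or 14.5 ± 1.55 RPKM (SD, n = 2), and 9.89 and 8.29 RPKM in B7-H4-null, or 9.09 ± 1.13 RPKM. It was 1.60-fold lower in means, with a log2 difference of −0.62 ± 0.25 (95% interval −1.22 to −0.03) that did not pass (adjusted p = 0.387, limma). With the length trend removed it was −0.39, and the largest size over the alternatives was −0.74.

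Prc1, which bundles midzone microtubules, measured 22.1 and 39.3 RPKM in the wild-type libraries, as compared to 22.9 and 24.1 RPKM in those of B7-H4-null, so that wild type replicate 2 alone stood apart. Tpx2, the spindle assembly factor that activates Aurora A, was the most abundant of the group with 29.6 and 41.7 RPKM against 37.4 and 31.0 RPKM. Aspm, a spindle pole protein, was the least abundant of all 42 genes, with 4.35 and 4.88 RPKM against 4.67 and 2.46 RPKM. It was low in B7-H4-null replicate 2 only. The other 7 genes of the group, the kinesins Kif11, Kif20a, Kif23, Kif2c and Kif4, the exchange factor Ect2 and the spindle protein Nusap1, had log2 differences between −0.25 and −0.01.

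Mki67 and Top2a are common markers of dividing cells. Mki67, which coats mitotic chromosomes, measured 53.1 and 46.7 RPKM in the wild-type libraries, as compared to 52.3 and 35.9 RPKM in those of B7-H4-null (log2 difference −0.20 ± 0.281, adjusted p = 0.814). Top2a, the topoisomerase that untangles sister DNA, had 64.5 and 69.1 RPKM against 60.0 and 76.0 RPKM (0.02 ± 0.256, adjusted p = 0.987). For both genes the B7-H4-null libraries spread more widely than the genotypes differed in means. Their 95% intervals, −0.87 to 0.48 and −0.59 to 0.63, leave room for changes under 2-fold.

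**Figure D3:**
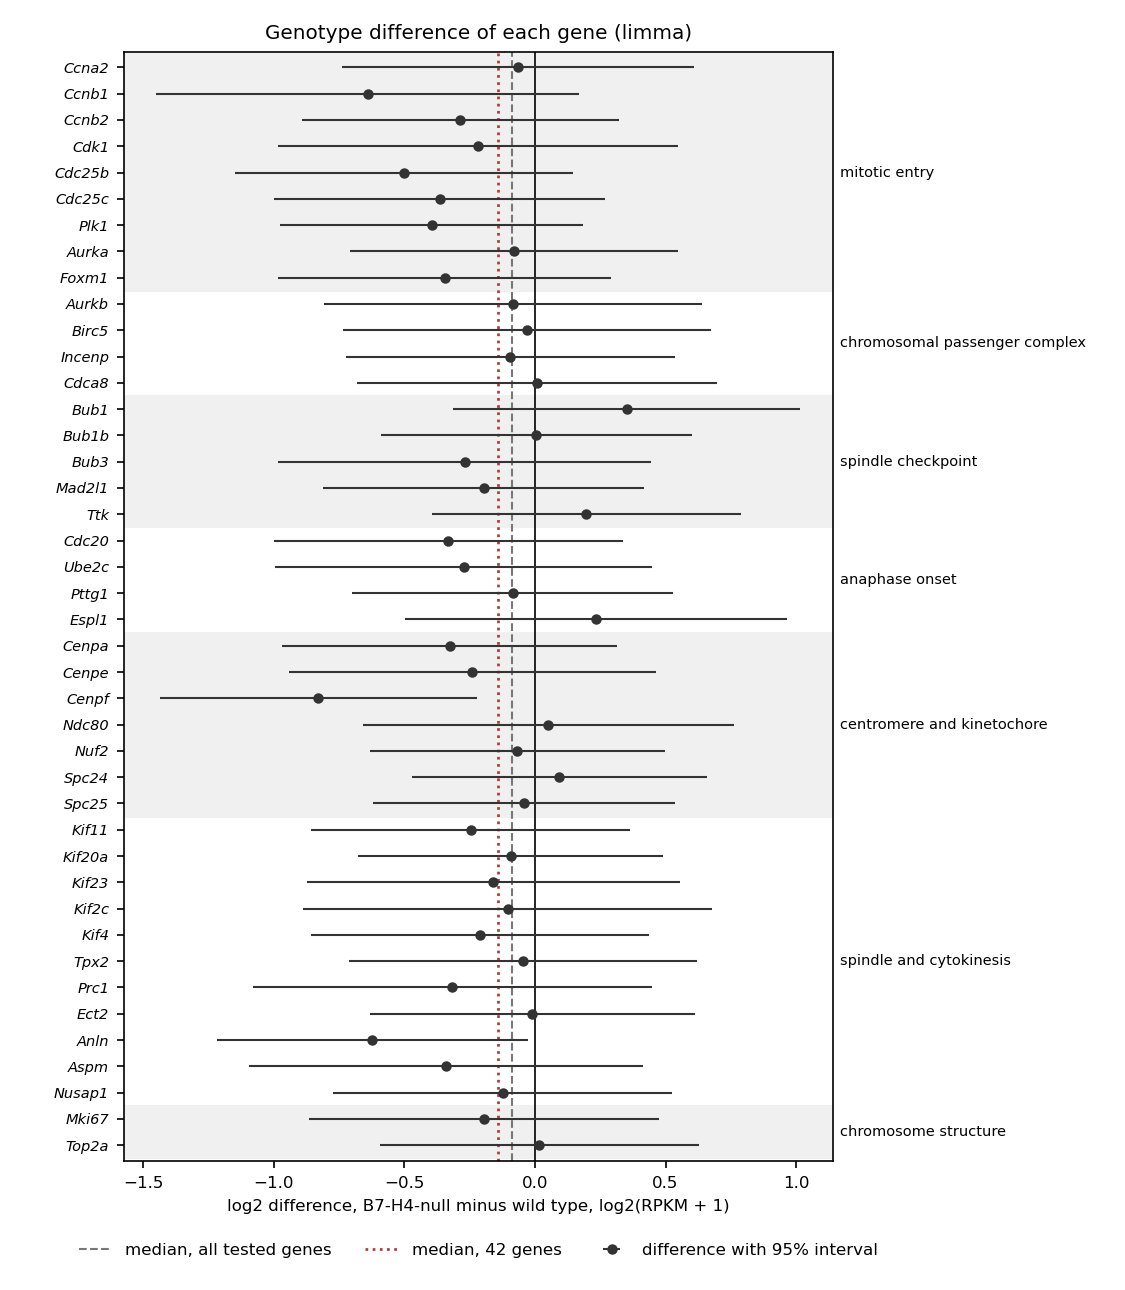
Log2 difference (B7-H4-null minus wild type, on log2(RPKM + 1)) of each of the 42 genes with its 95% interval from limma, ordered by role; the dotted line is their median (−0.14) and the dashed line that of all tested genes (−0.09). Only the intervals of Cenpf and Anln leave out 0, before adjustment for the number of genes tested.

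Most of the 42 genes had the same highest library. Wild type replicate 2 was the highest library for 32 of them (76.2%), against 33.6% of all tested genes. It was above wild type replicate 1 for 35 of 42 (83.3%, against 53.5% of all genes). The 10 genes highest elsewhere were Mki67, Anln and Cenpe in wild type replicate 1, Bub1, Ttk, Espl1, Ndc80 and Kif2c in B7-H4-null replicate 1, and Spc24 and Top2a in B7-H4-null replicate 2. B7-H4-null replicate 2 was the lowest for 17 genes, 40.5% against 21.3% of all. Relative to each gene's mean over the 4 libraries on the log2(RPKM + 1) scale, the median deviation was −0.06 and 0.25 in wild type and −0.02 and −0.12 in B7-H4-null. With 2 libraries a genotype, the smallest two-sided p of an exact permutation test is 0.333, and no such test was made.

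The 36 genes of DNA replication, made in late G1 and S phase, deviated in the opposite direction to the mitosis genes in 3 of the 4 libraries and in the same direction in B7-H4-null replicate 1. Their median deviations were 0.14 and −0.22 in wild type and −0.14 and 0.14 in B7-H4-null. Wild type replicate 2 was the lowest library for 20 of the 36, against 22.8% of all tested genes. Mcm6, a subunit of the replicative helicase, measured 168 and 120 RPKM in the wild-type libraries, as compared to 130 and 203 RPKM in those of B7-H4-null. Cdc45, another part of that helicase, had 43.6 and 36.6 RPKM against 49.99 and 57.3 RPKM. Of the 36 genes 4 were higher and 1 lower without overlap, against 16.0% and 28.0% of all tested genes. The lower one was Cdk2, with 72.03 and 63.45 RPKM against 49.37 and 52.2 RPKM. The deviation of the mitosis genes minus that of the replication genes was −0.20 and 0.48 in wild type and 0.12 and −0.26 in B7-H4-null. The balance of the gene lists thus differed more between the 2 libraries of each genotype than between the genotype means. Means of 2 libraries vary less than single libraries. Kit was lowest, at 7.19 RPKM, in the library with the highest mitosis values, and its part in them was not tested.

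**Figure D4:**
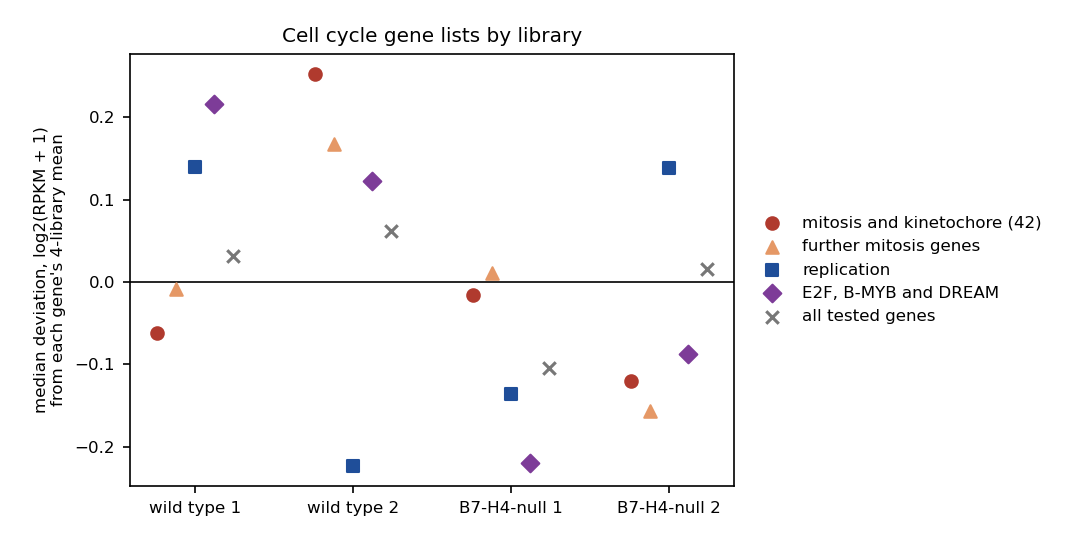
Median deviation of 5 gene lists in each library from each gene's 4-library mean, in log2(RPKM + 1). The 42 mitosis and kinetochore genes (red circles) peak in wild type replicate 2 at 0.25, where the replication genes (blue squares) are lowest at −0.22.

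Further mitosis genes outside the 42 were also examined. Of 73 tested genes in 3 lists of kinetochore, spindle and mitotic regulator genes, 0 passed in either direction (0.0413% of all genes passed as higher and 0.0578% as lower). The median log2 difference was −0.16. An unadjusted p under 0.05 (limma) was seen for 3 of the 73, the genes Kif18b, Sgo1 and Cenpm, against 12.3% of all tested genes. Without overlap 7 were higher and 21 lower, against 16.0% and 28.0% of all tested genes. Wild type replicate 2 was highest for 36 of the 73 (33.6% of all tested genes) and B7-H4-null replicate 2 lowest for 39 (21.3% of all). Kif18b, a kinesin that shortens astral microtubules, had 18.02 and 21.81 RPKM in the wild-type libraries against 13.6 and 11.2 RPKM in those of B7-H4-null (−0.64, adjusted p = 0.386). Sgo1, shugoshin, the protector of centromeric cohesin, had 8.06 and 10.2 RPKM against 5.21 and 6.00 RPKM (−0.62, adjusted p = 0.407). Cenpm, of the inner kinetochore, lay the other way with 12.1 and 10.6 RPKM against 16.9 and 17.9 RPKM (0.58, adjusted p = 0.401).

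E2F factors, B-MYB and the DREAM complex, regulators of cell cycle genes, had 22 tested genes, of which 0 passed. Their binding to the promoters shown above was not measured. The median log2 difference of the 22 was −0.29, with 19 below 0, beside 7085 of all 12107 tested genes. Without overlap 12 were lower (54.5%, against 28.0% of all genes) and 0 higher (against 16.0%). Rbl2, the pocket protein p130 of DREAM, measured 20.9 and 20.5 RPKM in the wild-type libraries, as compared to 14.1 and 10.1 RPKM in those of B7-H4-null (−0.74, adjusted p = 0.349). Lin52, another DREAM subunit, had 6.30 and 5.12 RPKM against 2.92 and 3.32 RPKM (−0.70, adjusted p = 0.362). E2f8, a repressive E2F, had 54.72 and 40.96 RPKM against 31.5 and 24.3 RPKM (−0.76, adjusted p = 0.362). The groups did not overlap for these 3 genes. B7-H4-null replicate 1 was the lowest library for 15 of the 22, against 39.0% of all tested genes. The counts of this list were made on the RPKM values without further scaling or length correction.

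The genotype difference moved with gene length over the whole table, and so did the differences between replicates of 1 genotype. This touches the longer members. Lengths were those that make whole reads of the RPKM values. From the shortest to the longest of 5 bins of equal gene number, the median log2 difference of the 12107 genes went from 0.08 over −0.01, −0.09 and −0.16 to −0.25. The share lower without overlap was 19.2% in bin 2 and 45.4% in bin 5. Between replicates, the median of B7-H4-null replicate 1 minus 2 went from −0.225 in bin 1 to −0.024 in bin 5. That of wild type replicate 1 minus 2 went from −0.136 to 0.033. The trend on length thus varied from library to library. The 12 mitosis genes in bin 5 (4337 to 11130 nt) had a median of −0.23, close to all genes of that length, and the 11 in bin 2 (1337 to 1957 nt) had −0.09. The 8 in bin 3 had −0.16 and the 10 in bin 4 −0.09, and Ube2c, alone in bin 1, had −0.27. The medians of the mitosis genes thus did not fall steadily with length. Cenpf at 11130 nt is the longest of the 42. With the trend on length removed from each library, the median of the 42 was −0.02, with 20 above 0 and 22 below. That step also moved the median of all tested genes, from −0.09 to 0.003. Median-ratio scaling, which has no length term, gave 19 above and 23 below, with a median of −0.04 for the 42.

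The medians of the mitosis genes were higher in wild type replicate 2 than in replicate 1 in every length bin, although 7 of the 42 genes went the other way, among them Bub1, Espl1, Cenpe, Anln and Mki67 of bin 5. In bins 2, 3, 4 and 5 they had median differences of wild type replicate 1 minus replicate 2 of −0.37, −0.35, −0.41 and −0.12, beside −0.07, −0.02, −0.003 and 0.03 for all genes of those lengths. Between the B7-H4-null libraries, replicate 1 minus replicate 2 was 0.35 for the 12 mitosis genes of bin 5, which include Mki67, Cenpe, Aspm and Espl1. It was −0.02 for all genes of that length. In bins 2, 3 and 4 the mitosis genes had −0.05, −0.08 and 0.11, beside −0.19, −0.13 and −0.10 for all genes. Ube2c, alone in bin 1, had −0.63. The low values of B7-H4-null replicate 2 were thus largest in the longest bin and not shared by every bin.

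**Figure D5:**
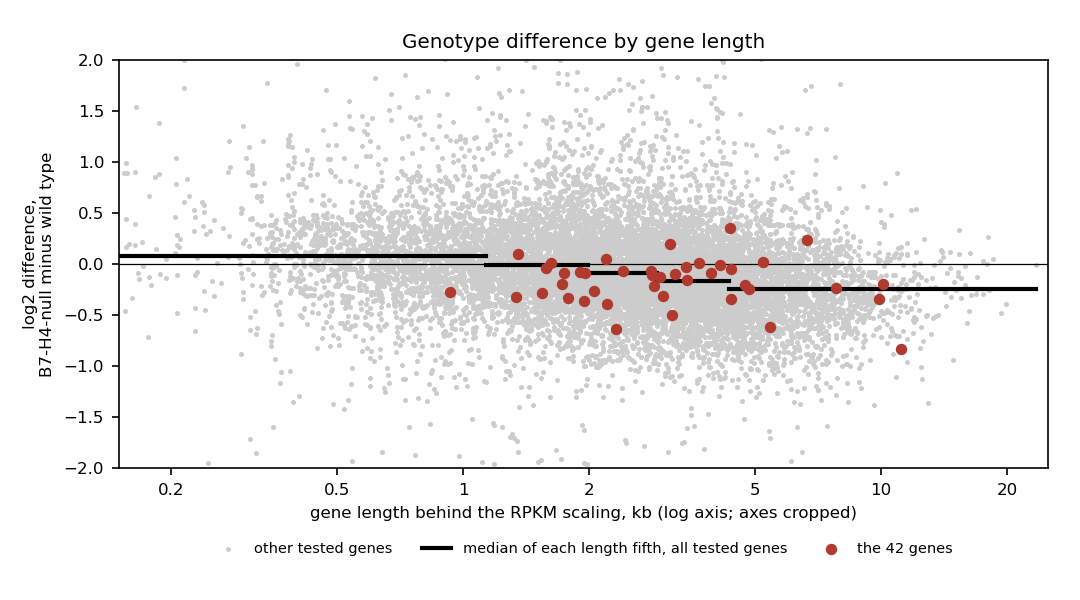
Log2 difference (B7-H4-null minus wild type) against the gene length behind the scaling in kb (log axis) for the tested genes (grey) and the 42 genes (red); black lines are medians of all tested genes in each of 5 length bins. The medians go from 0.08 in the shortest to −0.25 in the longest bin, and Cenpf, the longest of the 42, lies lowest among them.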

How the data were processed

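RNA of 2 wild-type and 2 B7-H4-null samples was sequenced from TruSeq RNA v2 libraries on a HiSeq2500, per the labels' protocols. The submitters' processing notes name TopHat2 2.0.12 and GRCm38, while how reads were counted, on which annotation and with which strand setting, was not given in the sources used here. The authors deposited 1 table of RPKM values per Entrez gene ID, a unit read from the values. Symbols came from RefSeq's gene table (GRCm38.p6) for 25275 of 27179 IDs.

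Library totals and gene lengths were recovered from the steps between RPKM values; all 14608 genes above 0 in every library gave whole reads to within 0.001 read. The smallest length was kept, or up to 4 times it where only that lay within 2% of an annotated transcript (647 genes, among them Cenpf and Kif23).

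The 12107 genes that reached 1 RPKM in 2 or more of the 4 libraries were tested with limma 3.58.1 in R 4.3.3 on log2(RPKM + 1). The model held genotype alone, variances followed a trend on the mean, and two-sided p-values were adjusted by Benjamini and Hochberg's method, with calls at 0.05. Because of the added 1, differences of low genes come out too small. The fit was also run on simulated counts with the same dispersion for every gene and no trend on gene length. Those settings differ from these data, so the run does not show how the fit behaves here. The members, gene lists and tests were chosen with earlier results of these data known. Values per library are given for the 3 genes with the smallest p and the most abundant gene of each role, and other lists name up to 3 genes by p and 2 by level. Alternatives covered pseudocount, filter, scaling, trend, replicate block and left-out libraries; voom on recovered reads and removal of the length trend (loess, span 0.5) were added after seeing the data.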

Additional observations from a re-analysis of the deposited data

How the results depend on the processing

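No alternative called any of the 42 genes (41 with a filter at 5 RPKM), and their median log2 difference of −0.14 moved by more than the spread of that median between replicates (SD 0.166) only without wild type replicate 1; its sign changed without wild type replicate 2. Leaving out each library in turn gave medians from −0.34 (without wild type replicate 1) to 0.021 (without wild type replicate 2), 21 to 36 genes without overlap in place of 13, and 0 to 56 called genes over the table in place of 12 (0 without either B7-H4-null library). Fewer libraries overlap less by construction, and the lone library left is assumed to vary like the other genotype's. All genes called were 0 with no filter on low values, 6 with the length trend removed and 21 with the replicate block, and 8 of the 42 genes did not overlap after median-ratio scaling. The replicate block, which treats equal replicate numbers as pairs although the labels do not say so, called 0 of the 42, with adjusted p = 0.178 for Cenpf. Over the tested genes, wild type replicate 1 minus 2 correlated with B7-H4-null replicate 1 minus 2 at 0.247, and genes are not independent replicates.

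Of the 42 genes 11 changed sign with median-ratio scaling, 5 with quantile normalization and 12 with the length trend removed. Among those described by library, median-ratio scaling gave 0.018 for Aurkb, 0.069 for Birc5, 0.008 for Incenp and 0.056 for Tpx2; quantile normalization gave 0.031 for Birc5 and 0.01 for Tpx2. With the length trend removed Birc5 was 0.125, Incenp 0.049, Cenpe 0.043, Tpx2 0.158 and Mki67 0.111. Over the left-out libraries the log2 difference ranged as follows: Aurkb −0.396 to 0.229, Birc5 −0.348 to 0.287, Incenp −0.26 to 0.07, Cdca8 −0.291 to 0.307, Ube2c −0.587 to 0.043, Espl1 −0.116 to 0.586, Cenpe −0.545 to 0.066, Tpx2 −0.286 to 0.197, Prc1 −0.716 to 0.083, Aspm −0.698 to 0.017, Mki67 −0.461 to 0.07 and Top2a −0.151 to 0.185. The causes were not tested.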

Other observations

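Cohesin and condensin hold and compact the sister chromatids on which the kinetochores sit. Of 19 tested genes 0 passed, and 8 were lower and 2 higher without overlap (28.0% and 16.0% of all tested genes), with a median log2 difference of −0.13. The cohesin subunit Rad21, the target of separase, measured 93.2 and 117.9 RPKM in the wild-type libraries, as compared to 71.0 and 71.6 RPKM in those of B7-H4-null (−0.55, adjusted p = 0.455, limma), and Wapl, which releases cohesin, had 34.9 and 42.6 RPKM against 28.4 and 28.0 RPKM (−0.44, adjusted p = 0.534). The condensin subunit Smc4 had 166.1 and 116.3 RPKM against 185.6 and 119.4 RPKM, overlapping.

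The anaphase-promoting complex had a median of −0.04 over 16 tested genes. Its chain-elongating enzyme Ube2s measured 16.4 and 17.3 RPKM in the wild-type libraries, as compared to 28.1 and 22.5 RPKM in those of B7-H4-null (0.55, adjusted p = 0.443), the opposite direction to its partner enzyme Ube2c, whose libraries overlapped. Neither passed the test. Of 11 tested D cyclins, their kinases and CDK inhibitors 0 passed, and the median was −0.37, with 5 above 0 and 6 below. Without overlap 5 were higher and 2 lower, against 16.0% and 28.0% of all tested genes. The kinase gene Cdk4 had 151.2 and 119.5 RPKM against 173.1 and 242.3 RPKM, higher without overlap (0.60, adjusted p = 0.472, limma). Ccnd3, the most abundant D cyclin, had 101.3 and 138.6 RPKM against 44.5 and 119.5 RPKM, overlapping (−0.69, adjusted p = 0.601). Ccnd2 had 1.14 and 1.15 RPKM against 3.77 and 5.24 RPKM (1.35, adjusted p = 0.183), and Ccnd1 had 0.883 and 1.33 RPKM against 5.99 and 21.9 RPKM (2.60, adjusted p = 0.188), while the CDK inhibitor locus Cdkn2a had 3.82 and 5.05 RPKM against 2.24 and 0.814 RPKM (−1.16, adjusted p = 0.32).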
